A study of Rattus norvegicus with 24 samples.

Results

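Whole lung and whole liver of Sprague Dawley rat pups that had received vehicle only were compared at postnatal day 6. The comparison took the 8 of 24 libraries whose titles name vehicle, 4 from lung and 4 from liver. All pups were of genotype WT and were nursed by their mothers. Both groups shared the vehicle, 2.5% ethanol, given under the skin once a day for 5 days from postnatal day 1, and tissue was frozen 24 hours after the last dose. The other 16 libraries came from lung and liver of pups given the glucocorticoid dexamethasone at 0.1 mg/kg, or desisobutyryl ciclesonide, the active metabolite of another glucocorticoid, at 1.25 mg/kg, on the same schedule. They are used below only to look at gene sets chosen in the vehicle libraries. The labels do not say from which litters or how many dams the pups came, so a p-value measures only how these 8 libraries vary, which may be technical in part.

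The lung at this age is building alveoli, and its tissue is a mixture of airway and alveolar epithelium, capillary endothelium, fibroblasts, smooth muscle and immune cells. The liver is dominated by hepatocytes, which make most plasma proteins in very large amounts, and in newborn rodents it still holds blood-forming cells. Each library is RNA of a whole tissue, so fewer cells of a type and less RNA per cell cannot be told apart. The counts carry Ensembl identifiers without gene names, and 0 of 30560 identifiers matched the gene table used here. The tissue labels could therefore not be checked against marker genes, and genes are given by identifier or by rank, with no function.

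Lung libraries held 21191601, 20466441, 18582331 and 23078082 gene counts, and liver libraries held 16724129, 17574089, 17953806 and 17384433. Every lung library was deeper than every liver library (exact two-sided permutation p = 0.0286, the smallest that 4 against 4 can give). Libraries of the same tissue were close across the 15294 genes tested, with a Pearson r of log2 CPM (the counts in ppm of a library size scaled by its TMM factor) of 0.979 to 0.992 within lung and 0.979 to 0.989 within liver. Between tissues r was 0.584 to 0.617. These correlations are across genes, which are not independent replicates, and all pairs share the same gene models. The biological coefficient of variation estimated by edgeR was 0.180 in lung and 0.211 in liver.

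Lung vehicle replicate 3 stood apart. In it, 121 genes reached at least 2 CPM and at least 4 times the level of each of the other 3 lung libraries, against 1, 0 and 2 such genes in lung replicates 1, 2 and 4. Liver replicates 1 to 4 had 3, 3, 5 and 9. The 121 genes summed to 5018 CPM in lung replicate 3, which is 0.801% of its counts, and to at most 605 CPM in another lung vehicle library. Some of the results below are also given without this library.

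The counts of lung were spread over many genes, and those of liver were held by few. The 10 genes with the most counts took 7.66%, 7.19%, 6.79% and 6.53% of the gene counts in lung replicates 1 to 4, against 30.5%, 29.7%, 31.6% and 30.9% in liver replicates 1 to 4. The tissues did not overlap, with means of 7.04% ± 0.496 in lung and 30.7% ± 0.768 in liver (SD, n = 4 each). The difference of -23.6 percentage points, lung minus liver, had an exact two-sided permutation p of 0.0286, also after adjustment over 7 measures of concentration. Taken as 4 pairs by replicate number, lung was lower in 4 of 4, with an exact sign-flip p of 0.125, the smallest that 4 pairs allow. Every other exact permutation test over libraries given here with p = 0.0286, depth included, also had an exact sign-flip p of 0.125 in pairs, so none of them passed as a paired test. Without lung replicate 3 the difference was -23.5.

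The number of genes needed to reach a given share showed the same contrast. The number of genes that together held 50% of the counts was 1069, 1103, 1163 and 1142 in the lung libraries, against 60, 68, 53 and 60 in the liver libraries. To reach 90% of the counts took 6575 ± 77.4 genes in lung and 3609 ± 170 in liver (SD, n = 4 each). The effective number of genes, the exponential of the Shannon entropy of the shares, was 4730 ± 158 in lung and 722 ± 51.2 in liver. This is the number of genes that would give the same entropy if counts were spread evenly over them. For each of these measures the 4 lung libraries lay wholly on one side of the 4 liver libraries (exact permutation p = 0.0286, adjusted p = 0.0286).

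**Figure D1:**
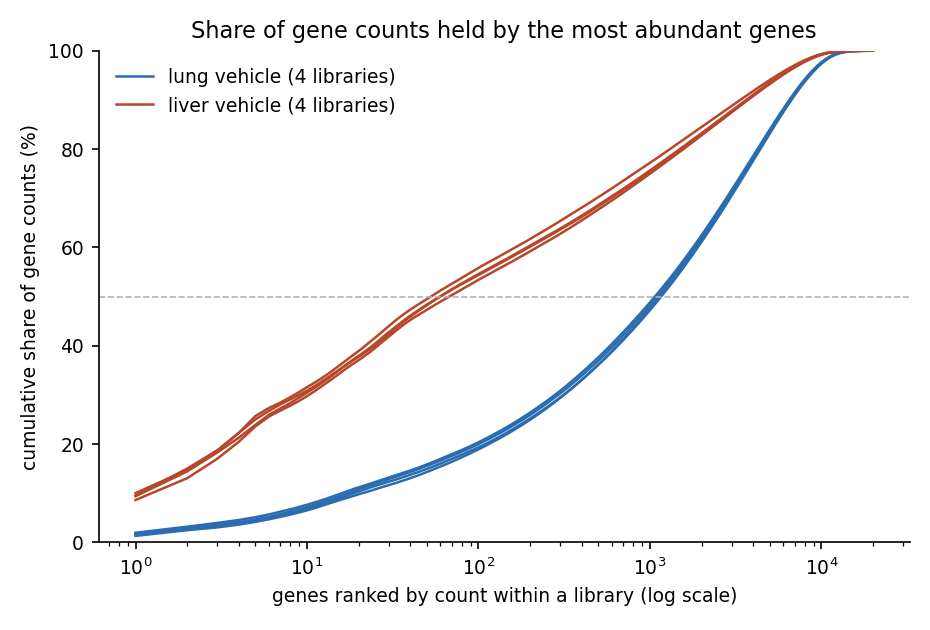
Cumulative share of gene counts (percent, vertical axis) against genes ranked by count within each library (log scale, horizontal axis), 1 line per vehicle library. The liver lines cross the dashed 50% line at 53 to 68 genes and the lung lines at 1069 to 1163 genes.

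The difference was also present without the leading gene of each library. With the gene of most counts removed from each library, the next 10 genes took 5.89% ± 0.311 of the remaining counts in lung and 24.5% ± 0.344 in liver (SD, n = 4 each). The effective number of genes was then 5012 ± 130 in lung and 1011 ± 51.1 in liver. The difference reached further down the list as well. The 100 genes with the most counts took 19.7% ± 0.646 in lung and 54.6% ± 0.997 in liver, and the leading 500 took 36.7% ± 0.725 in lung and 68.7% ± 1.07 in liver.

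Grouped by their mean share, only 2 genes of lung held at least 10000 ppm of the gene counts (parts of the library's total, without TMM factors), and together they took 2.87% ± 0.299 of the library (SD, n = 4). In liver 8 genes did so and took 28.7% ± 0.754. The middle of the range was where lung had its counts. Between 100 and 1000 ppm lung had 2212 genes with 48.2% ± 0.5001 of its counts, whereas liver had 999 genes with 23.6% ± 0.311. Genes between 10 and 100 ppm numbered 8366 in lung and 6701 in liver, and took 33.7% ± 0.551 and 21.1% ± 0.804 of the counts of lung and of liver. Shares of counts are not divided by gene length, so a rank below is a rank of sequenced fragments and not of molecules.

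More genes were seen in lung at equal depth. After every library was thinned to the 16724129 counts of the shallowest, genes with at least 1 count numbered 18693 ± 175 in lung and 16788 ± 215 in liver (SD, n = 4 each). Genes with at least 10 counts numbered 15236 ± 152 in lung and 13402 ± 146 in liver. Neither measure overlapped between tissues (exact permutation p = 0.0286, adjusted over 4 measures 0.0286). Without thinning the differences, lung minus liver, were 2060 and 2079 genes, against 1906 and 1834 genes after it. Leaving out lung replicate 3, the differences after thinning were 1826 and 1758 genes. The number of genes seen moved with the concentration of counts described above, and the part of concentration in it was not tested.

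The gene with the most counts in liver, ENSRNOG00000002911, was nearly missing from lung. It had 174, 5, 24 and 118 counts in lung replicates 1 to 4, or 0.000371% of the gene counts on average. In liver replicates 1 to 4 it took 9.40%, 8.63%, 10.03% and 9.53% of the counts. The lung values differed widely among themselves, yet all lay far below every liver value, and the gene ranked 12550 in lung. The log2 fold change, lung over liver, was -15.94 with a standard error of 1.04 (adjusted p = 1.15e-07, edgeR quasi-likelihood test). Without lung replicate 1 it was -16.68.

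The gene ranked second in liver, ENSRNOG00000030625, took 0.0100%, 0.0102%, 0.0113% and 0.0149% of the counts in lung replicates 1 to 4, against 5.04%, 4.43%, 4.70% and 5.49% in liver replicates 1 to 4. It was steady in lung, unlike the leading liver gene, and ranked 1866 there. Its log2 fold change was -10.06 with a standard error of 0.31 (edgeR adjusted p = 5.03e-11).

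Lung had no gene of comparable weight, and the 2 leading lung genes were also among the leading genes of liver. ENSRNOG00000029886, first in lung by mean share, took 1.97%, 1.71%, 1.07% and 1.17% of the counts in lung replicates 1 to 4, against 0.884%, 0.971%, 0.726% and 0.442% in liver replicates 1 to 4. By share the tissues did not overlap, and lung was higher. The direction depended on the scaling. With TMM factors, which set the bulk of genes level between the tissues, the log2 fold change was -0.36 with a standard error of 0.28 and did not pass (edgeR adjusted p = 0.258), while with library totals alone it was 0.97 and passed (edgeR adjusted p = 0.00464).

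ENSRNOG00000034234 was of rank 2 in lung and of rank 4 in liver. Its share was 1.23%, 1.27%, 1.73% and 1.33% in lung replicates 1 to 4, against 3.00%, 3.13%, 3.64% and 3.53% in liver replicates 1 to 4. It was the gene with the most counts in lung replicates 3 and 4, and lung replicate 3 was the highest of the lung libraries. The gene was lower in lung under both scalings, with a log2 fold change of -2.59 and a standard error of 0.22 under TMM (edgeR adjusted p = 3.60e-07) and of -1.26 on library totals (edgeR adjusted p = 1.86e-05).

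**Figure D2:**
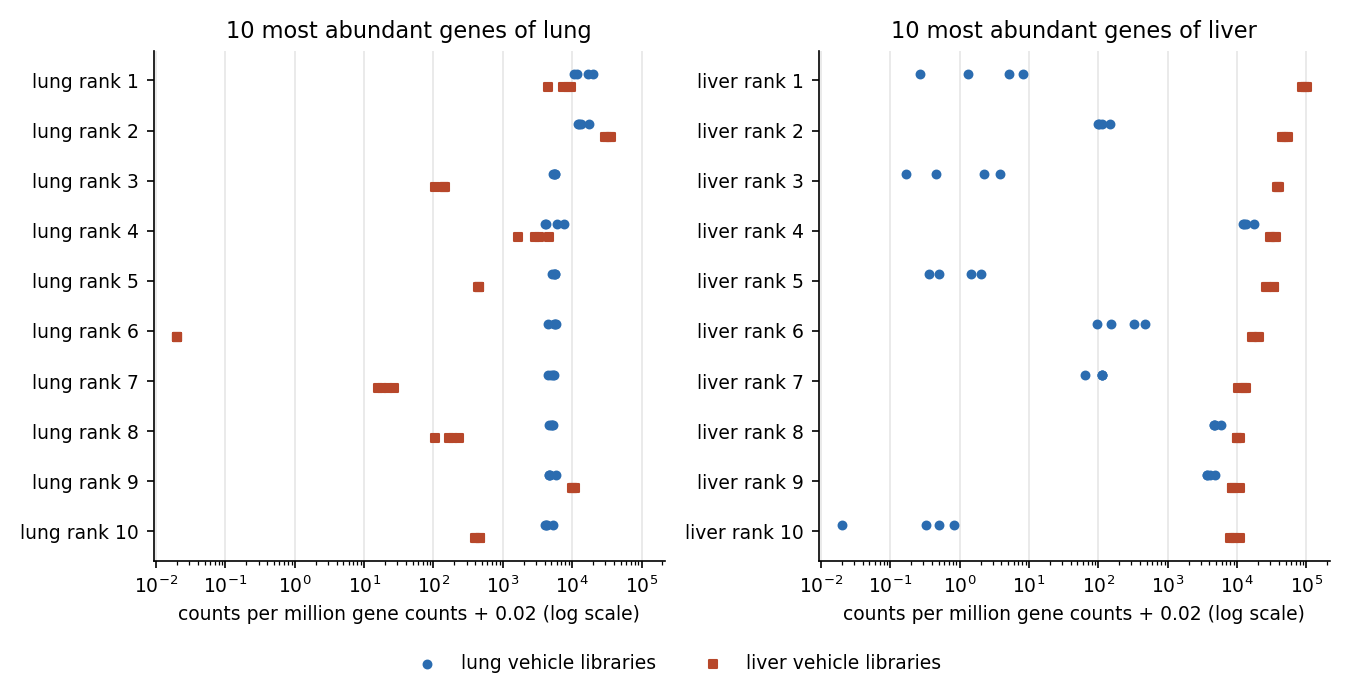
Share of gene counts in ppm (log scale, with a small offset so that 0 can be drawn) of the 10 genes with the most counts in lung (left) and in liver (right), 1 point for each lung and each liver vehicle library. By share, the liver genes of ranks 1, 3, 5 and 10 lie more than 10000 times lower in lung. The lung genes of ranks 1, 2, 4 and 9 lie within 3 times of their liver share, without TMM factors.

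The remaining leaders of lung were of 3 kinds. Rank 6 had no count in any liver library, and rank 7 took 245 times its liver share. Ranks 3, 5, 8 and 10 took 41.2, 12.2, 28.8 and 10.2 times their liver share. Ranks 4 and 9 were nearer to their liver share, at 1.76 and 0.480 times. On the TMM scale rank 9 was 5.26-fold lower in lung (edgeR adjusted p = 1.03e-07), and rank 4 was not called (edgeR adjusted p = 0.146). Among the leaders of liver, ranks 3, 5 and 10 took 23406, 28838 and 23266 times their lung share, ranks 6 and 7 took 70.7 and 121 times, and ranks 8 and 9 took 2.08 and 2.29 times. Few leaders were common to both tissues. The lists of 10 shared 2 genes, or 20% of each, and the lists of 20 shared 6, or 30% of each.

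The genes of ranks 1 and 4 of lung kept a similar ratio across the libraries. Rank 1 had 2.56, 2.85, 2.63 and 2.78 times the counts of rank 4 in lung replicates 1 to 4, and 2.62, 2.11, 2.53 and 2.69 times in liver replicates 1 to 4. Rank 4 itself took 0.770%, 0.598%, 0.407% and 0.419% in lung, and 0.338%, 0.460%, 0.287% and 0.164% in liver. The level of each thus varied within a tissue, while their ratio stayed between 2.11 and 2.85 in all 8 libraries. Ratios of other leading genes were not compared, so this range is not shown to be particular to these genes.

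Of the 6 genes that both lists of 20 held, the 5 other than the first of lung were all lower in lung. Together they took 2.79%, 2.81%, 3.60% and 2.74% of the counts in lung replicates 1 to 4, against 6.38%, 6.48%, 7.41% and 6.88% in liver replicates 1 to 4. The tissues did not overlap, and each of the 5 was highest in lung replicate 3 among lung libraries. Gene by gene the liver share was 1.93 to 2.43 times the lung share. On the TMM scale the gap was wider, and the genes were 4.86- to 6.12-fold lower in lung. These genes were picked as leaders of both tissues, so no test is given for their sum.

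Lists of leading genes carried unequal weight in the other tissue. The 10 leading liver genes took 2.34% ± 0.348 of lung counts and 30.5% ± 0.741 of liver counts (SD, n = 4 each). The 10 leading lung genes took 7.001% ± 0.498 of lung counts and 5.55% ± 0.285 of liver counts. Leading lung genes were thus substantial in liver as well, largely through the genes that both lists hold. Of the leading 100 in lung, 44 had at least 10 times, 9 at least 100 times and 4 at least 1000 times their liver share, and 15 were below it. Of the leading 100 in liver, 67, 56 and 39 exceeded their lung share by those factors, and 5 were below it. The median ratio to the other tissue was 5.91 for the lung list and 333 for the liver list.

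Across all genes most levels differed between the tissues. Of 15294 genes tested, 11365 were called at an adjusted p under 0.05 by the edgeR quasi-likelihood test, or 74.3%. Of all tested, 5953 were higher in lung (38.9%) and 5412 were lower in lung (35.4%). In 10772 genes, or 70.4%, the libraries of the tissues did not overlap. Changes of at least 2-fold were called for 4036 genes higher in lung (26.4%) and 3327 lower in lung (21.8%), and changes of at least 16-fold for 1010 higher (6.6%) and 738 lower (4.83%). Without lung replicate 3 the number called was 11162.

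The split into higher and lower rested on the scaling. TMM factors were 1.57 to 1.60 for lung and 0.594 to 0.649 for liver. With library totals alone the median log2 fold change moved by 1.33, and 11600 genes were higher and 1859 lower in lung, so that 86.2% of called genes were higher in lung, against 52.4% with TMM. All 5953 genes called higher in lung with TMM were also called higher on totals. Of the 5412 called lower with TMM, 1859 were still lower, 1518 were not called and 2035 were called higher. Folds below are relative to the TMM scale, on which the median log2 fold change was 0.06.

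**Figure D3:**
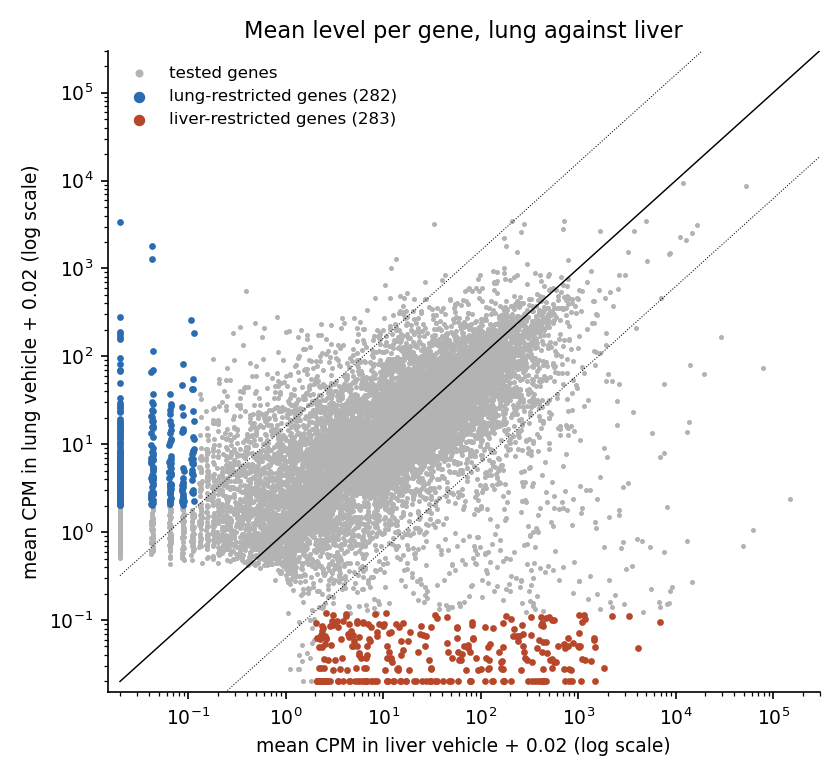
Mean CPM per gene in lung vehicle (vertical axis) against liver vehicle (horizontal axis), both on log scales with a small offset so that 0 can be drawn; the solid line marks equal levels and the dotted lines mark 16-fold. The 282 lung-restricted genes lie along the left edge and mostly below 100 CPM, while the 283 liver-restricted genes lie along the lower edge and reach beyond 1000 CPM.

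The genes called lower in lung held most of the liver library. They took 30.96% ± 0.904 of lung counts and 84.9% ± 0.953 of liver counts (SD, n = 4 each). Genes called higher in lung took 49.2% ± 0.883 of lung counts and 6.95% ± 0.474 of liver counts. The contrast was sharpest at 16-fold. The 1010 genes at least 16-fold higher in lung took 8.06% ± 0.273 of lung counts and 0.0793% ± 0.00502 of liver counts. The 738 genes at least 16-fold lower in lung took 0.448% ± 0.0643 of lung counts and 50.9% ± 0.737 of liver counts. These shares come from the values that made the calls and are a description.

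Large folds sat at different levels in the tissues. Of the 150 genes that reached at least 1000 CPM in the higher tissue, 18 were called higher and 130 lower in lung, and 7 were at least 16-fold higher while 93, or 62.0%, were at least 16-fold lower. This class was cut on the TMM scale, on which 30 genes of lung and 133 of liver reached 1000 CPM. By share, 59 genes of lung and 76 of liver held 1000 to 10000 ppm, and 2 and 8 held more. The balance in this class thus depends on the scaling, and it was not counted on library totals. Between 1 and 10 CPM the balance was the other way, with 485 genes at least 16-fold higher in lung and 140 at least 16-fold lower among 3998. Under the library totals scaling, 1785 genes were at least 16-fold higher in lung and 540 at least 16-fold lower.

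By fitted log2 fold change, ENSRNOG00000011177 and ENSRNOG00000020196 headed the genes higher in lung. Such fits rest on liver counts of 0 or 1, so the bounds and ratios below do not rank these genes against others of the restricted set. ENSRNOG00000011177, the rank 6 gene of lung, had 3779, 3530, 2768 and 3506 CPM in lung replicates 1 to 4 and no count in any liver library. Against a floor of 3 counts over the 4 liver libraries it was at least 49658-fold higher (edgeR adjusted p = 2.55e-10). ENSRNOG00000020196 had 1933, 2126, 1415 and 1691 CPM in lung replicates 1 to 4, and 1 count in liver, in replicate 4. Its ratio was 78783, with a 95% counting interval of 14140 to 3111770 that covers counting error only (edgeR adjusted p = 5.87e-12). Without liver replicate 4 it had no count in liver. Both were lowest in lung replicate 3, and both were far above any liver library.

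By the same measure ENSRNOG00000000814 and ENSRNOG00000001809 headed the genes lower in lung, and neither had a count in any lung library, so their folds are bounds that do not show them to be the largest. ENSRNOG00000000814 had 1644, 1692, 1498 and 1145 CPM in liver replicates 1 to 4 and was at least 65783-fold lower in lung (edgeR adjusted p = 2.51e-10). ENSRNOG00000001809 had 1000, 978, 1173 and 1155 CPM in liver replicates 1 to 4 and was at least 47373-fold lower in lung (edgeR adjusted p = 7.30e-11). The 10 largest fitted folds in each direction were all genes of the restricted sets described next. This follows largely from the rule for those sets, since both rest on few or no counts in the other tissue.

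A gene was taken as restricted to a tissue where its mean was at least 2 CPM there and under 0.1 CPM in the other, with no overlap between libraries. By this rule 282 genes were restricted to lung, or 2.20% of the 12794 genes at 2 CPM or more there, and 283 were restricted to liver, or 2.30% of 12281. Of these, 275 and 271 passed the filter on low counts and were tested. The sets were equal in number but not in kind. On the TMM scale the lung set was made of low genes, with a median of 5.31 CPM in lung and an interquartile range of 3.43 to 12.2. The liver set reached higher on that scale, with a median of 30.6 CPM in liver and a range of 6.02 to 260.

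At stricter levels the sets parted. At 10 CPM or more there were 82 lung-restricted and 188 liver-restricted genes, at 100 CPM or more 11 and 104, and at 1000 CPM or more 3 and 20. These limits are on the TMM scale, so each is stricter for lung as a share of counts. The first lung-restricted gene had 3396 CPM, or 5377 ppm of lung counts. The first liver-restricted gene had 6939 CPM, or 4356 ppm of liver counts. Genes at these limits were not counted on shares, so the size of this gap depends on the scaling. The lung set took 1.71% ± 0.0546 of lung counts and 4.84 ppm of liver counts, and the liver set took 13.4 ppm of lung counts and 4.50% ± 0.0897 of liver counts (SD, n = 4 each). The weight of the lung set lay in few genes. ENSRNOG00000011177 alone made up 31.5% of it and the leading 10 genes 73.1%, whereas in the liver set the first gene made up 9.70% and the leading 10 made up 35.9%.

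Silence in the other tissue also differed. Of the lung-restricted genes, 124 had no count in the 4 liver libraries, 130 had 1 to 3 and 28 had more. Of the liver-restricted genes, 75 had no count in the 4 lung libraries, 76 had 1 to 3 and 132 had more. These counts are not on an equal footing, because 0.1 CPM stood for 4.39 counts over the liver libraries and for 13.2 counts over the lung libraries on the TMM scale. A count of 0 allows up to 3 counts, or 0.0684 CPM over the liver libraries and 0.0227 CPM over the lung libraries.

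Many genes lay close to the limits. Just inside the limit in the other tissue, between 0.05 and 0.1 CPM, there were 52 lung-restricted and 67 liver-restricted genes, and just outside, between 0.1 and 0.2 CPM, there were 122 for lung and 70 for liver. With library totals in place of TMM the sets held 483 lung-restricted and 198 liver-restricted genes. Whether the sets are equal in number therefore turned on the scaling.

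The genes with most counts in liver were not in the restricted set. The first of the liver-restricted genes ranked 29 in liver, since the leaders above it exceeded 0.1 CPM in lung. A rule chosen after these values were seen, of at least 1000-fold between tissues in CPM with no fixed limit, took 17 genes for lung, 16 of them restricted, and 204 for liver, 141 of them restricted. These 17 genes took 1.42% ± 0.0513 of lung counts, and the 204 took 36.3% ± 0.805 of liver counts (SD, n = 4 each). The leading 10 genes held 1 such gene in lung and 5 in liver, and the leading 100 held 4 in lung and 45 in liver.

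The traces of leading liver genes in lung varied by library. The 4 genes of liver ranks 1, 3, 5 and 10, which made up 17.2% ± 0.617 of liver counts, summed to 314, 15, 50 and 209 counts in lung replicates 1 to 4. Relative to their liver share these were 85.9, 4.25, 15.6 and 52.5 ppm. Replicates 1 and 4 were high and replicates 2 and 3 low. Within lung replicate 1 the 4 genes stood at ratios to liver of 64.9 to 98.8 ppm, and within replicate 4 at 32.8 to 57.1 ppm. Within replicates 2 and 3 they ran from 0 to 11.2 and from 11.1 to 52.4 ppm. The liver gene of rank 2 did not follow this pattern, with 2124, 2085, 2107 and 3442 counts in lung replicates 1 to 4. A wider set, with the rank 2 gene in it, held the 38 liver genes of the 1000-fold rule with at least 1000 ppm in liver. Its summed ratios to liver were 445, 392, 429 and 588 ppm in lung replicates 1 to 4. The median ratios of its genes were 142, 34.8, 66.6 and 210 ppm. In the other direction, the 1000-fold rule with at least 1000 ppm in lung took 3 genes, all of them lung-restricted. They summed to 0, 0, 0 and 2 counts in liver replicates 1 to 4. Genes of the restricted set were chosen for a mean under 0.1 CPM in liver, so their few counts there follow from the choice. The liver genes had no such limit in lung, so the directions cannot be compared. The source of these traces was not tested.

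Lung-restricted genes were uneven among lung libraries. Their median coefficient of variation was 22.0%, and that of liver-restricted genes among liver libraries was 25.9%, against 10.04% and 15.99% for all genes at 2 CPM or more in lung and in liver. Of 43 lung-restricted genes with a coefficient of variation of at least 70%, 42 were highest in lung replicate 3. The 16 such liver-restricted genes were highest in replicates 1 to 4 in 1, 4, 7 and 4 cases. The restricted sets were not matched on level with all genes, and the lung set had a median of 5.31 CPM. The genes highest in lung replicate 3 were not counted among all lung genes of such spread. Neither the spread nor its place in replicate 3 is therefore shown to be particular to restricted genes.

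The lung-restricted gene of rank 5 had 76.5, 92.5, 766 and 102 CPM in lung replicates 1 to 4. That of rank 9 had 77.5, 93.6, 400.1 and 88.0 CPM. Rank 17 was the most extreme, with 0.0302, 1.89, 268 and 0.0270 CPM, and reached a mean of 2 CPM through replicate 3 alone. Without lung replicate 3 the lung set held 254 genes, all of them among the 282, and the liver set held 296, of which 273 were shared. Of the 121 genes that stood apart in replicate 3, 30 were lung-restricted.

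**Figure D4:**
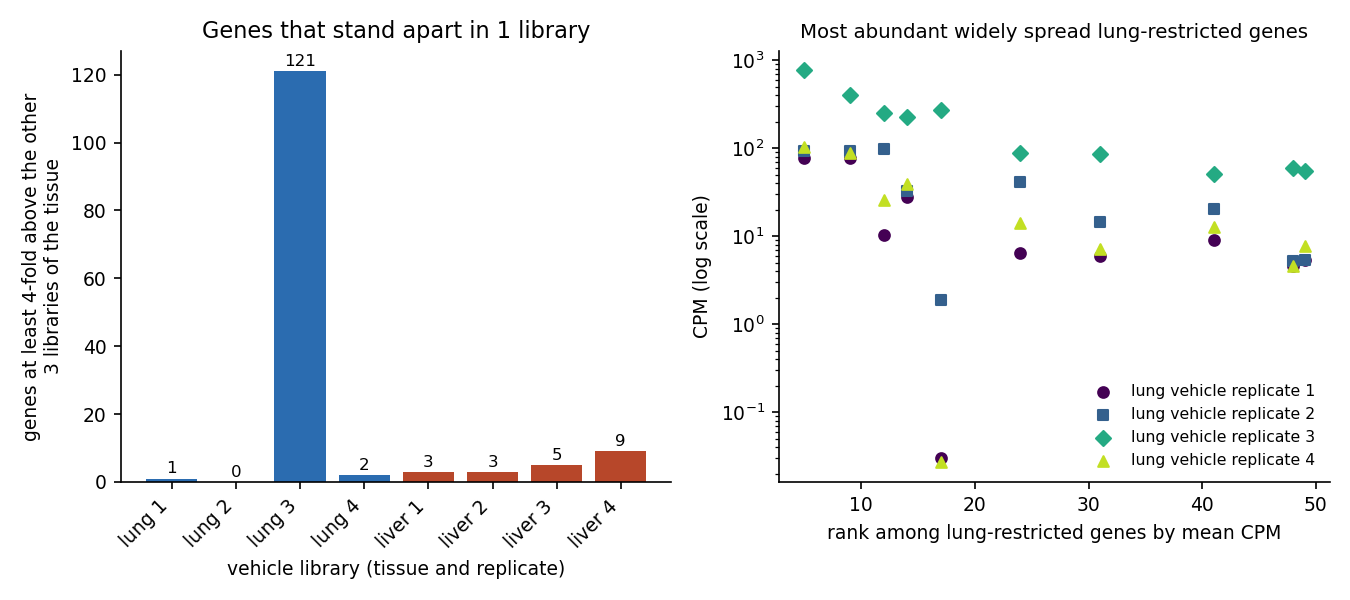
Left, the number of genes at least 2 CPM and at least 4-fold above each of the other 3 libraries of the tissue, for the 4 lung and 4 liver vehicle libraries. Right, CPM (log scale) in the 4 lung vehicle libraries of the 10 most abundant lung-restricted genes with a coefficient of variation of at least 70%, against their rank in the set. Lung replicate 3 holds 121 genes in the left panel and the highest point of every gene in the right panel.

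The same 121 genes were high in some drug libraries of lung. On a scaling of all 24 libraries they summed to 319, 1242, 5518 and 8988 CPM in lung dexamethasone replicates 1 to 4 and to 1063, 493, 1211 and 9130 CPM in lung desisobutyryl ciclesonide replicates 1 to 4. In lung vehicle replicates 1 to 4 they summed to 487, 583, 4832 and 577 CPM. High libraries thus occurred in each of the 3 treatments, and low ones too. Without names, no function can be given for these genes.

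The restricted sets were compared again in libraries that had no part in choosing them. Lung libraries lay wholly above liver libraries in 249 of 282 lung-restricted genes with dexamethasone and in 275 with desisobutyryl ciclesonide, and wholly below in 256 and 277 of 283 liver-restricted genes. Over all 15294 genes, lung lay wholly above in 37% with dexamethasone and 38.1% with desisobutyryl ciclesonide, and wholly below in 28.9% and 33.8%. Fewer met the full rule again. Among lung-restricted genes 153 (54.3%) did so with dexamethasone and 197 (69.9%) with desisobutyryl ciclesonide, and among liver-restricted genes 173 (61.1%) and 162 (57.2%).

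Summed over its genes, each set had a higher mean share with the drugs than with vehicle in its own tissue. The lung set took 3.89% ± 0.147 of the counts in lung with dexamethasone and 3.31% ± 0.843 with desisobutyryl ciclesonide, against 1.71% ± 0.0546 with vehicle (SD, n = 4 each). The liver set took 6.09% ± 0.321 of the counts in liver with dexamethasone and 4.74% ± 0.377 with desisobutyryl ciclesonide, against 4.50% ± 0.0897 with vehicle. With desisobutyryl ciclesonide the liver libraries overlapped those of vehicle, at 44082 to 51638 ppm against 44104 to 45828 ppm. In the opposite tissue the sums were also higher than those of the vehicle libraries that chose the genes for being low there. With dexamethasone and desisobutyryl ciclesonide the means were 12.0 and 13.98 ppm for the lung set in liver. For the liver set in lung they were 64.0 and 51.6 ppm. The desisobutyryl ciclesonide means were raised by 1 library each. Replicates 1 to 4 had 10.2, 9.21, 7.36 and 29.2 ppm for the lung set in liver. For the liver set in lung they had 31.2, 126, 20.5 and 28.6 ppm. Every drug library there still lay above every vehicle library. These values are a description, with no test of the drugs.

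**Figure D5:**
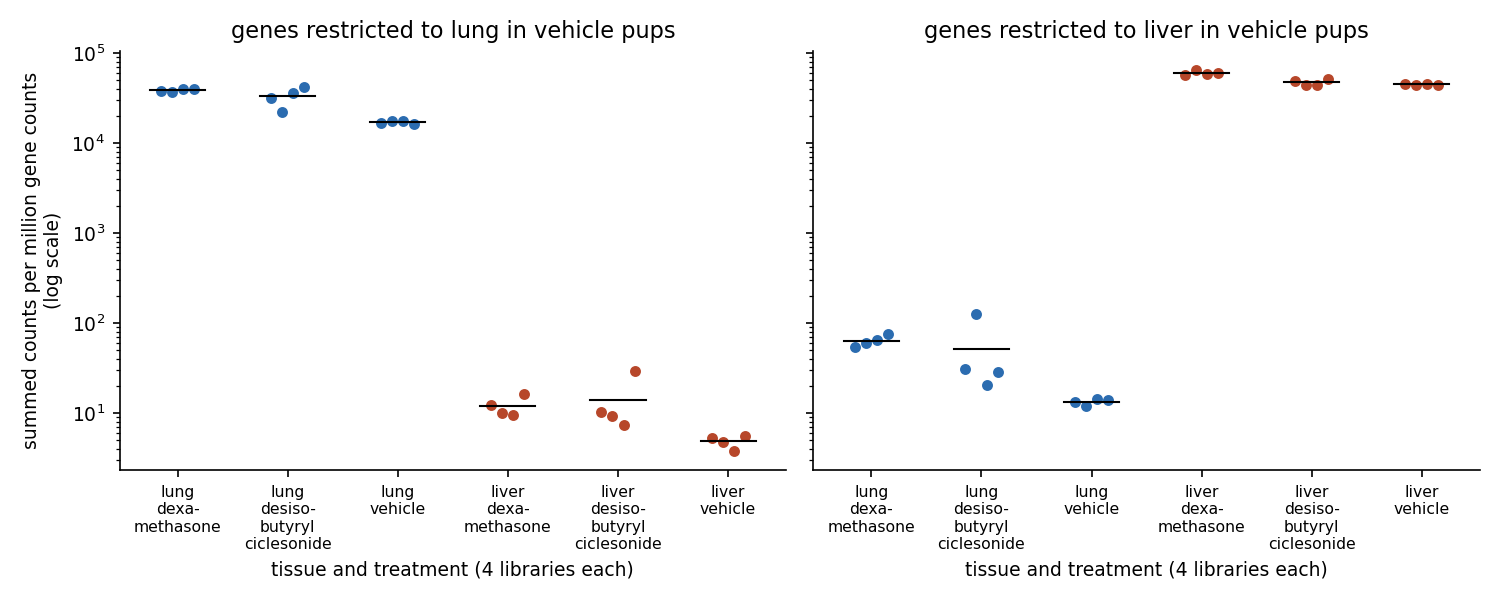
Summed share of gene counts in ppm (log scale) of the 282 lung-restricted genes (left) and the 283 liver-restricted genes (right) in all 24 libraries, by tissue and treatment, with 1 point per library and a line at each mean. In all 3 treatments every library of the tissue a set is named for lies above every library of the other tissue.

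Genes counted in both tissues made up most of the lung library. The 11242 genes at 2 CPM or more in each tissue took 95.3% ± 0.197 of lung counts and 76.2% ± 0.524 of liver counts (SD, n = 4 each), and 62.0% of them lay within 2-fold. A further 1552 genes reached 2 CPM in lung alone and 1039 in liver alone. Of 671 genes at 100 CPM or more in both, 503 (74.96%) lay within 2-fold, 186 were not called (27.7%, against 25.7% of all genes tested), 160 were called higher in lung (23.8%, against 38.9%) and 325 lower (48.4%, against 35.4%). At 1000 CPM or more in both there were 13 genes, 10 of which were called lower in lung and 1 higher.

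Among the 671 genes, the widest spread within a tissue was that of the liver gene of rank 6. It had 61.1, 96.0, 299 and 204 CPM in lung replicates 1 to 4, a coefficient of variation of 65.4%, against 8.56% in liver. The next, not called between tissues (edgeR adjusted p = 0.299), had 175, 205, 505 and 218 CPM in lung replicates 1 to 4, against 173, 183, 169 and 298 CPM in liver replicates 1 to 4. Both were highest in lung replicate 3 among lung libraries. The gene with the smallest difference had 200, 193, 213 and 199 CPM in lung replicates 1 to 4, against 182, 183, 216 and 223 CPM in liver replicates 1 to 4, and the tissues overlapped. For the 671 genes the median coefficient of variation was 7.06% in lung and 11.2% in liver.

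Entries that were not assigned to a gene also differed by tissue. They made up 26.9% ± 0.566 of entries in lung and 22.2% ± 0.406 in liver (SD, n = 4 each). Entries outside annotated genes were 16.2% ± 0.556 in lung and 10.5% ± 0.399 in liver, and ambiguous entries, which lie on more than 1 gene, were 1.33% ± 0.0698 in lung and 2.77% ± 0.152 in liver. None of these overlapped between tissues (exact permutation p = 0.0286, adjusted over 6 shares 0.0429). Entries of low alignment quality were 3.82% ± 0.268 in lung and 3.15% ± 0.257 in liver and did not overlap either. Unaligned entries were 2.64% in lung and 2.69% in liver (exact permutation p = 0.857), and entries aligned at several places were 2.90% in lung and 3.09% in liver (exact permutation p = 0.114, adjusted p = 0.137). Whether these shares bear on the differences per gene was not tested.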

How the data were processed

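RNA from frozen lung and liver was extracted with Trizol, selected for poly-A and made into directional libraries with dUTP, per the labels' protocols. Trimming, alignment and counting tools (cutadapt, HISAT2, HTSeq) and the build mRatBN7.2 are named in the submitters' processing notes. Versions, settings and the strand option are not given in the sources used here, which leaves counts uncertain for genes that overlap, lie antisense to another or have a near-identical copy. The deposited files hold raw counts per Ensembl identifier as the authors made them, with 5 closing summary rows. These rows, 26.9% of entries in lung and 22.2% in liver, entered neither library sizes nor tests. Depth was 16724129 to 23078082 gene counts per library. Intervals and floors cover counting error only.

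Groups, replicate numbers and tissues come from the sample titles. Genes passing the default expression filter (15294, with 15266 not tested and 9128 without a count in the 8 libraries) were fitted with edgeR 4.0.16 in R 4.3.3, with TMM scaling, a robust quasi-likelihood model, and Benjamini-Hochberg adjustment at 0.05. Adjusted p-values for genes come from it. CPM are on TMM-scaled libraries and shares on library totals. Values per library were compared by two-sided exact permutation tests, with a smallest p of 0.0286, and as pairs by exact sign-flip tests, with a smallest p of 0.125. Alternatives used DESeq2 1.42.0 and limma 3.58.1. The edgeR fit alone was tested on simulated data, in which both tissues were drawn from the liver means and few genes were changed. Such data do not test TMM scaling between tissues as unlike as these.

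Same-numbered lung and liver libraries deviated together from their group means (r of 0.116 to 0.309 across 12313 genes, which are not independent replicates; all 4 lung libraries were closest to their own number, but liver replicate 1 was closer to lung replicate 2, with r = 0.256, than to lung replicate 1), so the numbers were taken to pair the tissues. The pairing comes from the data, and the labels do not state it. Replicates differed by more than sampling noise in all 12 pairs (lowest chi-square over its degrees of freedom 11.6), and all 8 libraries were counted.

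The libraries, rules and lists were chosen with earlier results of these data known. The rule for naming took the most abundant genes of each tissue, the largest folds among called genes with at least 10 CPM in the higher tissue and no overlap, the most abundant restricted genes, and, among genes of at least 100 CPM in both tissues, the smallest folds and widest spreads. For want of names it was cut to 2 identifiers each way, with other genes given by rank. Since 0 of 30560 identifiers matched the table of 47357 genes, lists of marker genes, mitochondrial and erythroid genes and promoters were not analysed here.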

Additional observations from a re-analysis of the deposited data

Results flagged for a closer look

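Of 59 sets of 4 values looked at, 5 held 1 library beyond Dixon's 95% limit. The limit is on the gap from that library to the nearest other, as a share of the range. Among normally distributed values chance alone picks out about 1 in 20 such sets, a rate that does not cover sets of very few counts.

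Of these, 3 concern lung vehicle replicate 3. It had 121 genes at least 4-fold above the other 3 lung libraries. It also had 15461 genes with at least 10 counts after thinning, against 15131 to 15181 in the other lung libraries. ENSRNOG00000034234 stood at 10856 CPM in it, the highest of the lung libraries.

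The remaining sets were of liver. In liver vehicle replicate 2, ambiguous entries made up 3.00%, against 2.67% to 2.72% in the other liver libraries. ENSRNOG00000020196, absent from the other liver libraries, stood at 0.0900 CPM in liver vehicle replicate 4, which is 1 count. Where the other libraries have no count, any count exceeds the limit, so this flag was fixed by that 1 count.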

How the results depend on the processing

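Of the values that answer a comparison, recomputed under each alternative, 176 kept their direction and, for a tested difference, their side of the threshold or, for a count of genes, stayed within 1.5 times. A further 11 counts of genes moved by more, and 9 tested differences lost their call when taken as pairs. Among the 176, the difference in the share of the leading gene was -7.71 percentage points against -4.22 without the leading gene of each library. With library totals in place of TMM, 11600 genes were higher and 1859 lower in lung and 1785 were at least 16-fold higher, and ENSRNOG00000029886 reversed to a log2 fold change of 0.97 (edgeR adjusted p = 0.00464; 0.00464 to 0.570 over its 16 alternatives). The shift follows from the scaling, which moves the median gene by 1.33 on the log2 scale. Lung-restricted genes numbered 82 at 10 CPM or more, 669 and 124 with a limit of 0.5 and 0.02 CPM in liver, 483 on library totals and 17 with the 1000-fold rule, chosen after seeing the data. Liver-restricted genes numbered 188 at 10 CPM or more and 498 and 136 with those limits in lung.

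Other tools and filters called 11364 (RLE), 11497 (upper quartile), 11558 (DESeq2, with 45 adjusted p-values not given), 11402 (limma-voom), 12206 of 21432 genes (no filter) and 11673 genes (all 24 libraries). The fit with the replicate number as a block called 11356 genes, 5952 higher and 5404 lower in lung and 1014 at least 16-fold higher and 736 at least 16-fold lower, and changed no call among the 8 named genes. With the replicate pairing, an exact sign-flip test chosen after seeing the data gave p = 0.125, the smallest that 4 pairs allow, for the differences in concentration (-7.71, -23.6, -34.9 and -32.0 percentage points for the leading 1, 10, 100 and 500 genes, 1059 and 2966 genes for 50% and 90% of counts, 4008 effective genes) and in genes detected (1906 and 1834). Restricted sets come from no test and have no paired value. Leaving out each library in turn gave 10879 to 11385 called genes, 5695 to 6012 higher and 5184 to 5395 lower in lung, 254 to 316 lung-restricted and 275 to 296 liver-restricted genes, and a difference in the share of the leading 10 genes of -23.9 to -23.3 percentage points. With 3 libraries against 4 the smallest exact p is 0.0286.

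The limit of 0.1 CPM is 4.39 counts in liver and 13.2 in lung, a gap that holds both the depth and the TMM factors. ENSRNOG00000002911 ran from -16.82 to -14.61 (log2 fold change) over its 16 alternatives. Alternatives that need gene names (mitochondrial, erythroid and marker genes) were not run.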

Other observations

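The leading genes were largely the same in the libraries of a tissue. In lung, 8 genes were among the leading 10 of each of the 4 libraries, and 82 were among the leading 100 of each. In liver the numbers were 8 and 84.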
